A study of Mus musculus with 6 samples.

Results

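Immediate early and stress transcription genes were examined in embryo RNA as 10 named genes: Fos, Fosb, Jun, Junb, Egr1, Ier2, Ier3, Atf3, Dusp1 and Klf6. The members were fixed by gene name, and each of the 10 matched 1 of the 56359 rows of the table of gene levels. The study sequenced RNA from 3 Tmem216-/- and 3 wild type (Tmem216+/+) C57BL/6 mouse embryo samples at embryonic day 12. Tmem216 encodes a membrane protein of the transition zone at the base of the primary cilium, and the labels give the genotype without describing the allele. They name the source only as embryo, without the parts dissected, the number of embryos pooled per sample or whether replicates are separate embryos, so a p-value rests on the spread of these samples alone, part of which may be technical. Levels are in TPM, a unit scaled for gene length that keeps no record of read depth. Tmem216 itself was 2.25, 0.51 and 1.39 TPM in Tmem216-/- replicates 1, 2 and 3, against 31.0, 30.7 and 17.4 TPM in wild type replicates 1, 2 and 3, so the targeted gene follows the labels. Its exons overlap Cpsf7 on the other strand, which was at 75.9 ± 3.74 TPM in Tmem216-/- and 79.0 ± 6.68 TPM in wild type. Whether the library kept strand is not stated, so the source of the Tmem216 reads left in Tmem216-/- is not known.

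Immediate early genes are transcribed within minutes of a growth factor, calcium or stress signal, with no need for new protein synthesis. MAP kinases and other kinases phosphorylate factors already bound at their promoters, mainly SRF with its ETS partners and CREB, and the resulting RNAs are short-lived. Fos and Jun family proteins pair through leucine zippers to form the AP-1 transcription factor, Egr1 is a zinc finger factor, and Dusp1 removes the activating phosphates from MAP kinases and so closes the loop.

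The promoters of Fosb and Fos are shown because these genes had the widest spread of the 10 across the samples, and that of Dusp1 because it held the only full cAMP response element among the members searched. RefSeq promoter sequences (GRCm38.p6, the assembly called mm10) were matched for 8 of the 10 genes, and the 250 bases before the transcription start were searched. The stretch is chr7:19310046-19310295 on the minus strand for Fosb, chr12:85473640-85473889 on the plus strand for Fos and chr17:26508473-26508722 on the minus strand for Dusp1. Capitals mark the cAMP response element TGACGTCA, its half-site TGACG, the EGR motif GCGNGGGCG and the TATA box TATAAA.

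Fosb: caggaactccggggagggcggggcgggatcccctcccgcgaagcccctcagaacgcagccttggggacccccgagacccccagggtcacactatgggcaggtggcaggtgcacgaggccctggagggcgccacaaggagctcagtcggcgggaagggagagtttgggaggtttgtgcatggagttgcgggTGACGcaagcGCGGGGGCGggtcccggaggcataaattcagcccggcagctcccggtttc
Fos: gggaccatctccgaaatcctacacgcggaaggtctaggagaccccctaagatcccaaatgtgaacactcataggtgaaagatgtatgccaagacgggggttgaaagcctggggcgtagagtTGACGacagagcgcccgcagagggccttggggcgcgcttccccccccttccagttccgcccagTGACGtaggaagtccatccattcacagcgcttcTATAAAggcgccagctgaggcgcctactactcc
Dusp1: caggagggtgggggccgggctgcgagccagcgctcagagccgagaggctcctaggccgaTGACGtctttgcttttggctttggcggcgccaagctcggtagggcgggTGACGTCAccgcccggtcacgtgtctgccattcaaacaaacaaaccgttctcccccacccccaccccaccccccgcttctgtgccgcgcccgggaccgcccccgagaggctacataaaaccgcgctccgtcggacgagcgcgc

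Fosb held a half-site 60 bases before its start and an EGR motif 50 bases before it. Fos held half-sites at 129 and 66 bases and a TATA box at 33 bases. Dusp1 held a separate half-site at 191 bases and the full element at 143 bases. Half-sites were present in 5 of the 8 promoters, against 17.8% of 32851 mouse promoters of the same length, and the full element, which contains the half-site on both strands, in 1 of 8 against 1.55%. The EGR motif was found in 1 of 8 against 4.70%, and the TATA box, searched on the coding strand, in 1 of 8 against 7.59%. The AP-1 motif TGANTCA and the CArG box bound by SRF were in 0 of the 8, against 6.75% and 1.47%. Bases farther from the start were not searched, and no promoter of Ier2 or Egr1 was matched. All motifs other than the TATA box were searched on both strands, and a match in letters is not a measured binding site.

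The Fos genes and Egr1 were far higher in Tmem216-/- replicate 2 than in any other sample, and in the other Tmem216-/- samples they lay among the wild type values. Fos (chromosome 12, 85473890 to 85477273, plus strand, mm10) was 9.90, 63.6 and 4.76 TPM in Tmem216-/- replicates 1, 2 and 3, against 15.0, 6.13 and 3.40 TPM in wild type replicates 1, 2 and 3. The groups overlapped, since replicates 1 and 3 of Tmem216-/- lay inside the wild type range. Fosb (chromosome 7, 19302696 to 19310051, minus strand), whose protein is a second AP-1 partner of Jun proteins, was 2.54, 33.2 and 1.06 TPM in Tmem216-/-, against 6.07, 1.33 and 0.68 TPM in wild type. Egr1 (chromosome 18, 34859823 to 34864984, plus strand), the early growth response factor, was 6.12, 38.9 and 5.38 TPM in Tmem216-/-, against 9.71, 6.34 and 3.65 TPM in wild type. For all 3 genes wild type replicate 1 was the second highest sample and wild type replicate 3 the lowest.

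The spread within Tmem216-/- was therefore larger than the difference between the genotypes. Fos averaged 26.1 ± 32.6 TPM in Tmem216-/- and 8.19 ± 6.08 TPM in wild type (mean ± SD, n = 3 each), a difference of 1.00 on the log2(TPM + 1) scale (SE 0.92, 95% interval -1.18 to 3.19). Fosb averaged 12.3 ± 18.2 TPM in Tmem216-/- and 2.69 ± 2.94 TPM in wild type (log2 fold change 1.06, interval -1.53 to 3.65). Egr1 averaged 16.8 ± 19.2 TPM in Tmem216-/- and 6.57 ± 3.04 TPM in wild type (0.77, interval -0.96 to 2.50). None of the 3 passed limma over all genes (adjusted p = 0.983 for each), and the exact two-sided permutation p was 0.6, 0.6 and 0.7 for Fos, Fosb and Egr1, where 0.1 is the smallest that 3 against 3 samples allow. Without Tmem216-/- replicate 2 the log2 fold changes were -0.0052 for Fos, -0.16 for Fosb and -0.085 for Egr1.

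**Figure D1:**
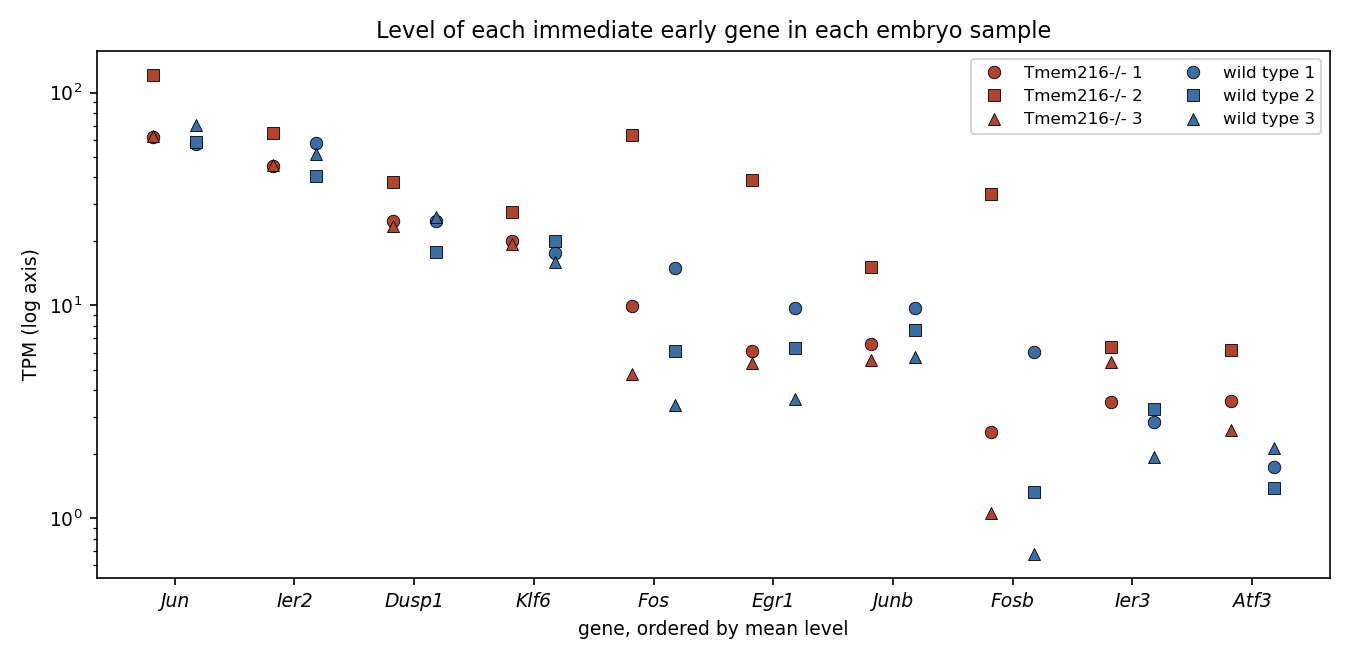
TPM of the 10 genes on a log axis, in Tmem216-/- samples (red, left of each pair) and wild type samples (blue, right), with the replicate number given by the marker. Tmem216-/- replicate 2 (red square) is the highest point of every gene, from 6.16 TPM for Atf3 to 121 TPM for Jun.

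Jun and Junb, the Jun family members of the set, showed the same high sample at a smaller scale. Jun (chromosome 4, 95049034 to 95052222, minus strand), the main partner of Fos in AP-1, was 61.9, 121 and 62.4 TPM in Tmem216-/-, against 57.5, 58.6 and 70.5 TPM in wild type. Junb (chromosome 8, 84974484 to 84978718, minus strand), which forms weaker AP-1 dimers and can oppose Jun, was 6.58, 15.1 and 5.57 TPM in Tmem216-/-, against 9.74, 7.67 and 5.70 TPM in wild type. Replicate 2 again stood above the rest of the samples, and the groups overlapped for both genes. The log2 fold change was 0.32 for Jun (SE 0.27, interval -0.31 to 0.96) and 0.12 for Junb (SE 0.37, interval -0.75 to 1.00), with adjusted p of 0.983 and 0.984 in limma. Without replicate 2 it was 0.0054 for Jun and -0.28 for Junb. Exons of both genes overlap a gene on the other strand, Junos for Jun and Prdx2 for Junb, and the sources used here do not say whether the library kept strand, so reads of the pairs cannot be told apart with certainty. Prdx2, a peroxidase gene, was at 726 ± 9.99 TPM in Tmem216-/- and 803 ± 54.8 TPM in wild type, far above Junb, and Junos was between 0.54 and 1.53 TPM; neither had its highest value in Tmem216-/- replicate 2.

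Ier3 and Atf3 were the only members whose 3 Tmem216-/- values all lay above all 3 wild type values. Ier3 (chromosome 17, 35821684 to 35822923, plus strand), an early response gene whose product influences cell survival, was 3.53, 6.41 and 5.41 TPM in Tmem216-/-, against 2.84, 3.25 and 1.94 TPM in wild type. Atf3 (chromosome 1, 191170296 to 191218039, minus strand), a stress-induced factor of the ATF/CREB family that mostly represses, was 3.57, 6.16 and 2.61 TPM in Tmem216-/-, against 1.74, 1.39 and 2.13 TPM in wild type. These 2 of the 10 compare with 4.75% of all 16411 tested genes that were higher in this way. Ier3 averaged 5.12 ± 1.46 TPM in Tmem216-/- and 2.68 ± 0.67 TPM in wild type (log2 fold change 0.72, SE 0.25, interval 0.13 to 1.31). Atf3 averaged 4.11 ± 1.84 TPM in Tmem216-/- and 1.75 ± 0.37 TPM in wild type (0.84, SE 0.28, interval 0.17 to 1.51). Both missed the threshold over all genes (limma unadjusted p = 0.0235 for Ier3 and 0.0212 for Atf3, adjusted p = 0.983 for both), and the exact two-sided permutation p was 0.1 for each, the smallest possible. That replicates 1 and 3 of Tmem216-/- alone lay above the wild type range follows from the separation of all 3 values. Without replicate 2 the log2 fold change was 0.57 for each gene. Ier3 and Atf3 are the 2 members with the lowest mean levels, and the ratio of mean TPM was 1.91 for Ier3 and 2.35 for Atf3.

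Dusp1, Klf6 and Ier2 were the steadiest members. Dusp1 (chromosome 17, 26505590 to 26562128, minus strand), the MAP kinase phosphatase, was 24.9, 38.1 and 23.6 TPM in Tmem216-/-, against 25.0, 17.8 and 26.0 TPM in wild type. Klf6 (chromosome 13, 5861482 to 5870394, plus strand), a Krüppel-like zinc finger factor, was 20.1, 27.4 and 19.6 TPM in Tmem216-/-, against 17.7, 20.1 and 16.1 TPM in wild type. Ier2 (chromosome 8, 84661331 to 84662852, minus strand), a small nuclear early response protein, was 45.1, 65.0 and 45.7 TPM in Tmem216-/-, against 57.9, 40.5 and 51.4 TPM in wild type. The groups overlapped for all 3 genes, and Tmem216-/- replicate 2 was the highest sample for each. The log2 fold changes were 0.31 for Dusp1 (interval -0.23 to 0.84), 0.29 for Klf6 (interval -0.10 to 0.68) and 0.05 for Ier2 (interval -0.40 to 0.50), with adjusted p of 0.983, 0.983 and 0.988 in limma. The span given for Dusp1 is that of GENCODE, and the RefSeq start used for its promoter lies inside that span. Within the GENCODE exons Dusp1 overlaps Ergic1 on the other strand, which was at 99.2 ± 3.64 TPM in Tmem216-/- and 105 ± 13.5 TPM in wild type. Whether the overlap falls in the exons behind the Dusp1 level was not examined.

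Over the whole set, the sample that stood apart was Tmem216-/- replicate 2, which held the highest of the 6 values for 10 of 10 genes. Across all tested genes that sample was the highest for 11.7%, and wild type replicate 3 most often, for 35.3%. Against the median of the other 5 samples, Tmem216-/- replicate 2 was 25.0 times as high for Fosb, 10.4 times for Fos, 6.36 times for Egr1, 2.89 times for Atf3 and 2.30 times for Junb. The ratio was 1.97 for Ier3, 1.96 for Jun, 1.53 for Dusp1, 1.42 for Ier2 and 1.40 for Klf6. A ratio of 2 or more in that sample was found in 5 of the 10 genes and in 1.88% of tested genes, and Fosb ranked 39 and Fos 51 among the 16411 by this ratio, behind genes that include some listed at 0 in most other samples. Wild type replicate 1 came second for 5 of the 10 genes and reached 2 times the median of the others for Fos and Fosb, at 2.45 and 4.56 times. The sample was singled out after the values were seen, so these counts describe these libraries and no test was made of them.

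**Figure D2:**
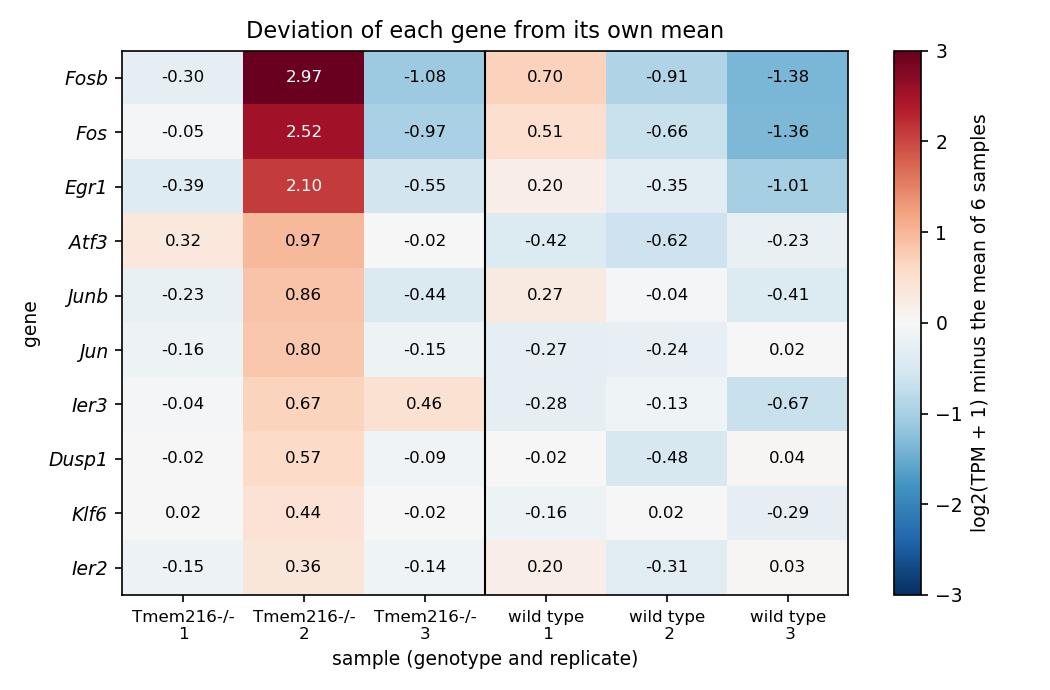
Each gene's log2(TPM + 1) minus its mean over the 6 samples, with the 3 Tmem216-/- samples left of the line and the 3 wild type samples right of it. The Tmem216-/- replicate 2 column is positive in every row, from 0.36 for Ier2 to 2.97 for Fosb, while the other Tmem216-/- columns run from -1.08 to 0.46.

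In levels per length the genes ran from Jun, with a mean of 72.1 TPM over all 6 samples, through Ier2 (50.9), Dusp1 (25.9), Klf6 (20.2), Fos (17.1), Egr1 (11.7), Junb (8.40), Fosb (7.48) and Ier3 (3.90) to Atf3 (2.93 TPM). The ranges of 8 of the 9 neighbouring pairs overlapped, and only Ier2 over Dusp1 held in all 6 samples with separate ranges. The places of Egr1 and Fosb in this order rest on Tmem216-/- replicate 2. Egr1 exceeded Junb in that sample only, 1 of the 6, and Fosb exceeded Ier3 in 2 of the 6. Fos exceeded Klf6 in that sample, with Klf6 the higher in the other 5. Jun stayed between the 82.9 and 92.7 percentile of the tested genes in every sample, whereas Fosb ran from the 2.89 percentile in wild type replicate 3 to the 70.8 percentile in Tmem216-/- replicate 2. The SD of log2(TPM + 1) over the 6 samples was 1.63 for Fosb, 1.40 for Fos and 1.10 for Egr1, larger than for 99.0%, 98.5% and 97.4% of tested genes, and 0.25 for Klf6 and Ier2.

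All 10 genes passed the filter on low values (a level of 1 TPM or above in no fewer than 3 samples), and 0 of the 10 passed limma at an adjusted p under 0.05, against 0.104% of the 16411 genes tested, 16 of them higher and Tmem216 lower. At an unadjusted p under 0.05 there were 2 of the 10, Ier3 and Atf3, against 4.46% of tested genes. All 10 fold changes were positive with all 6 samples, against 48.3% of tested genes, and the median of the 10 was 0.52 against -0.01 for all tested genes (log2). Without Tmem216-/- replicate 2, 5 of the 10 were positive and the median was 8.0e-05. Replicates 1 and 3 of Tmem216-/- lay inside the wild type range for 6 genes, above it for Ier3 and Atf3, and partly outside it for Klf6 and Junb.

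**Figure D3:**
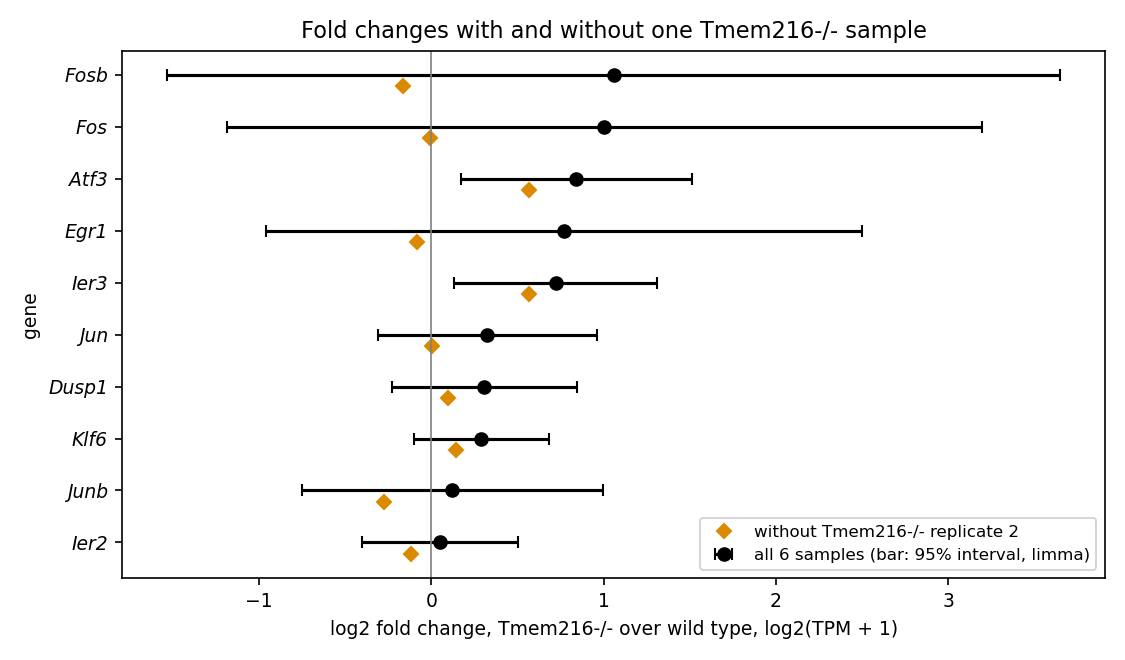
Log2 fold change of each gene, Tmem216-/- over wild type, from all 6 samples (black, with the 95% interval from limma) and without Tmem216-/- replicate 2 (orange). The interval includes 0 for 8 genes, and without that sample the values run from -0.28 for Junb to 0.57 for Ier3 and Atf3.

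In the lists of other immediate early, AP-1, kinase, phosphatase and stress response genes, 0 of the tested genes passed limma over all genes. Among 10 tested of 12 other AP-1 and related leucine zipper genes, 7 were higher and 3 lower, with a median log2 fold change of 0.09 (0.10 without Tmem216-/- replicate 2). Of the 10, 4 had their highest value in that sample, against 11.7% of tested genes. The smallest p in that list belonged to Batf3 (5.40 ± 0.94 TPM in Tmem216-/- and 6.91 ± 1.20 TPM in wild type), Atf2 (34.7 ± 0.97 TPM in Tmem216-/- and 30.6 ± 4.26 TPM in wild type) and Maff (5.14 ± 0.50 TPM in Tmem216-/- and 4.20 ± 0.77 TPM in wild type). Atf2 encodes a Jun partner that is activated by stress kinases, and its Tmem216-/- values all lay above its wild type values. Among 40 tested of 46 other immediate early genes, 27 were higher and 13 lower, with a median of 0.08 (0.02 without Tmem216-/- replicate 2), and 12 of the 40 had their highest value in that sample, against 11.7% of tested genes.

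Within those 40, Ccn2 had the smallest p, which was also below that of each of the 10 members. Ccn2, a matricellular protein gene induced by SRF and YAP signals, was 21.9, 21.0 and 20.2 TPM in Tmem216-/-, against 10.8, 13.6 and 15.9 TPM in wild type (log2 fold change 0.63, SE 0.15, limma adjusted p = 0.592). Unlike Fos and Egr1 it was level among the Tmem216-/- samples, and without replicate 2 its fold change was also 0.63. Btg1, an antiproliferative gene, was 38.3 ± 1.43 TPM in Tmem216-/- and 45.9 ± 4.41 TPM in wild type (-0.25), and Klf4, a Krüppel-like factor, was 7.20 ± 0.93 TPM in Tmem216-/- and 5.42 ± 0.84 TPM in wild type (0.36). The groups did not overlap for any of these 3 genes. Of the 40, 3 lay wholly above and 3 wholly below wild type, against 4.75% and 4.83% of tested genes.

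Of 34 tested upstream kinases and factors, 16 were higher and 18 lower, with a median of -0.01, equal to that of all tested genes at this rounding. Of the 34, 4 lay wholly above wild type and 1 wholly below it, against 4.75% and 4.83% of tested genes. Mapk13, a p38 isoform, was 2.23 ± 0.50 TPM in Tmem216-/- and 3.98 ± 0.77 TPM in wild type (-0.63, adjusted p = 0.978), Map2k1, which encodes the kinase MEK1, was 46.9 ± 1.90 TPM in Tmem216-/- and 41.8 ± 1.02 TPM in wild type (0.16), and Crem, a CREB relative, was 12.3 ± 1.50 TPM in Tmem216-/- and 9.74 ± 1.95 TPM in wild type (0.32). Of 10 tested other MAP kinase phosphatases, 2 were higher and 8 lower, with a median of -0.11 (-0.14 without Tmem216-/- replicate 2), and 2 of the 10 lay wholly below wild type, against 4.83% of tested genes. Dusp9 was 13.9 ± 1.78 TPM in Tmem216-/- and 18.9 ± 2.07 TPM in wild type (-0.42), Dusp14 was 4.06 ± 0.53 TPM in Tmem216-/- and 5.80 ± 1.62 TPM in wild type (-0.40) and Dusp2 was 2.44 ± 0.24 TPM in Tmem216-/- and 3.10 ± 0.38 TPM in wild type (-0.25). Of these 10, 1 had its highest value in Tmem216-/- replicate 2, near the 11.7% of all tested genes.

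The RNAs of the integrated stress response were not higher as a list. This pathway raises the ATF4 protein when translation initiation is inhibited and can induce Atf3. Of 18 tested of its 19 genes, 5 were higher and 13 lower, with a median of -0.08, 0 were wholly above wild type and 3 wholly below it, against 4.75% and 4.83% of tested genes. Atf4 RNA was 158 ± 9.47 TPM in Tmem216-/- and 161 ± 3.33 TPM in wild type, and the ATF4 protein was not measured. The 3 genes with the smallest p were Psat1, a serine synthesis enzyme gene (75.4 ± 6.31 TPM in Tmem216-/- and 98.4 ± 5.63 TPM in wild type, adjusted p = 0.593 in limma), Atf5, an ATF4 relative (24.9 ± 3.29 TPM in Tmem216-/- and 34.0 ± 2.48 TPM in wild type, adjusted p = 0.798), and Sesn2, a stress-induced inhibitor of growth signalling (6.88 ± 0.22 TPM in Tmem216-/- and 8.68 ± 0.54 TPM in wild type, adjusted p = 0.983).

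**Figure D4:**
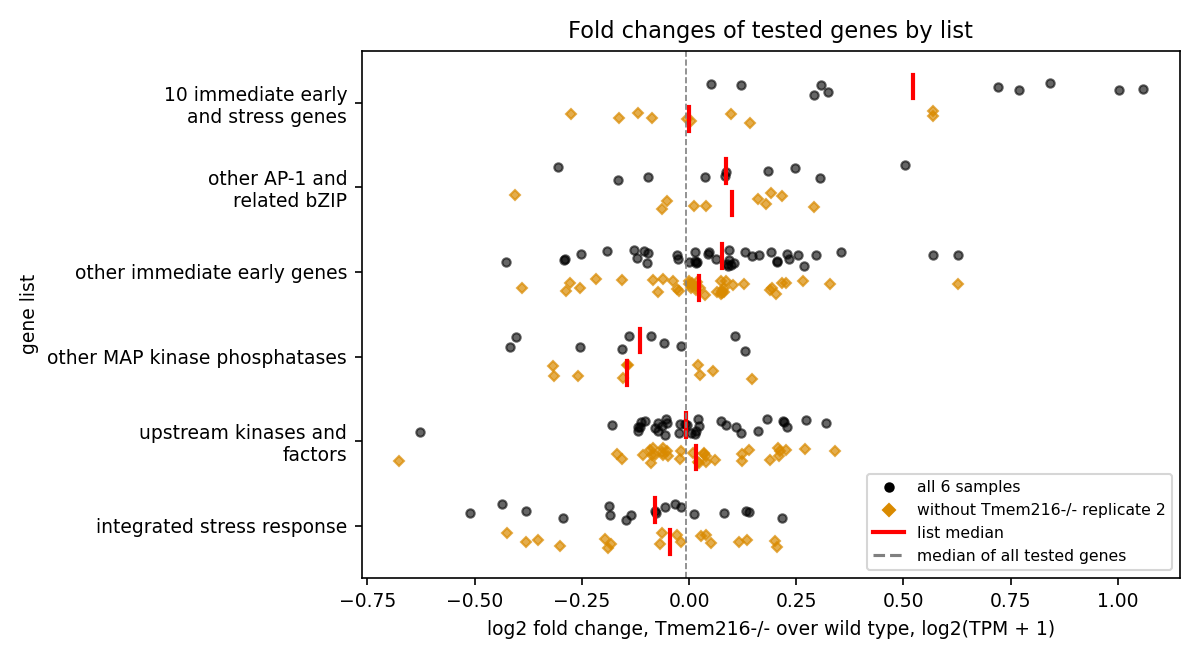
Log2 fold changes, Tmem216-/- over wild type, of the tested genes of each list, from all 6 samples (black) and without Tmem216-/- replicate 2 (orange), with list medians in red and the median of all tested genes dashed. The median of the 10 immediate early and stress genes is 0.52 with all samples and 8.0e-05 without that sample, while the medians of the other lists lie between -0.14 and 0.10 in both.

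Outside the 10 genes, the profiles across the samples that were closest to their mean profile again included immediate early genes. Likeness was the root mean square difference of mean-centred log2(TPM + 1) over the 6 samples, searched in 11068 tested genes with a mean of at least 5 TPM. Ccn1, a matricellular immediate early gene, was nearest (0.22) and was 46.8, 80.9 and 32.6 TPM in Tmem216-/-, against 36.4, 29.6 and 34.1 TPM in wild type. Zfp36, which encodes an RNA-binding protein that destabilises mRNAs, came next (0.29) with 4.84, 8.93 and 3.67 TPM in Tmem216-/-, against 6.32, 4.64 and 4.41 TPM in wild type. Jmjd7, a hydroxylase gene (0.33), Gatb, a mitochondrial translation gene (0.34), and Nr4a1, an orphan nuclear receptor of the immediate early class (0.34), followed. All 5 had their highest value in Tmem216-/- replicate 2, at 1.68 to 2.38 times the median of the other samples. The search favoured such genes, because the mean profile was itself highest in that sample (1.23), so this peak is no separate result. Of the 5, 0 passed limma (adjusted p from 0.983 to 0.986). Fos, a member, lay 0.72 from the mean profile.

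Markers of particular cell types also differed between the samples. All 9 heart muscle markers examined had all Tmem216-/- values above all wild type values, against 4.75% of tested genes. Of the 9, 7 passed limma, against 0.104%, and each was highest in Tmem216-/- replicate 2, against 11.7%. Their summed level was 1155, 2567 and 1650 TPM in Tmem216-/-, against 139, 234 and 199 TPM in wild type. In bulk samples fewer or more cells of a type and less or more RNA per cell cannot be told apart. The summed level of 7 endothelial markers was 202 to 238 TPM in Tmem216-/- and 201 to 215 TPM in wild type. Of the 7, 5 were highest in replicate 2 of Tmem216-/-, against 11.7% of tested genes. All Tmem216-/- values lay above all wild type values for 2 of the 7, against 4.75% of tested genes. The summed level of 6 hepatocyte markers was 854, 88.2 and 123 TPM in Tmem216-/-, against 1640, 2064 and 180.5 TPM in wild type. The 7 markers of the red blood cell lineage summed to 20656 TPM in Tmem216-/- replicate 2. The sum was 38504 TPM or more in the other Tmem216-/- samples and 25607 to 29388 TPM in wild type. Not all markers followed the sum, since 1 of the 7, Hbb-bh1, was highest in Tmem216-/- replicate 2. It was 2685, 2939 and 2662 TPM in Tmem216-/-, against 1439, 1796 and 2142 TPM in wild type, with no overlap of the groups. The 7 macrophage markers summed to 58.6 to 63.0 TPM in Tmem216-/- and 68.4 to 76.2 TPM in wild type, and the 6 surface epithelium markers to 60.4 to 97.0 TPM in Tmem216-/- and 96.8 to 119 TPM in wild type. No marker was listed at 0 in every sample, and the part of these cell types in the levels of the 10 genes was not tested.

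**Figure D5:**
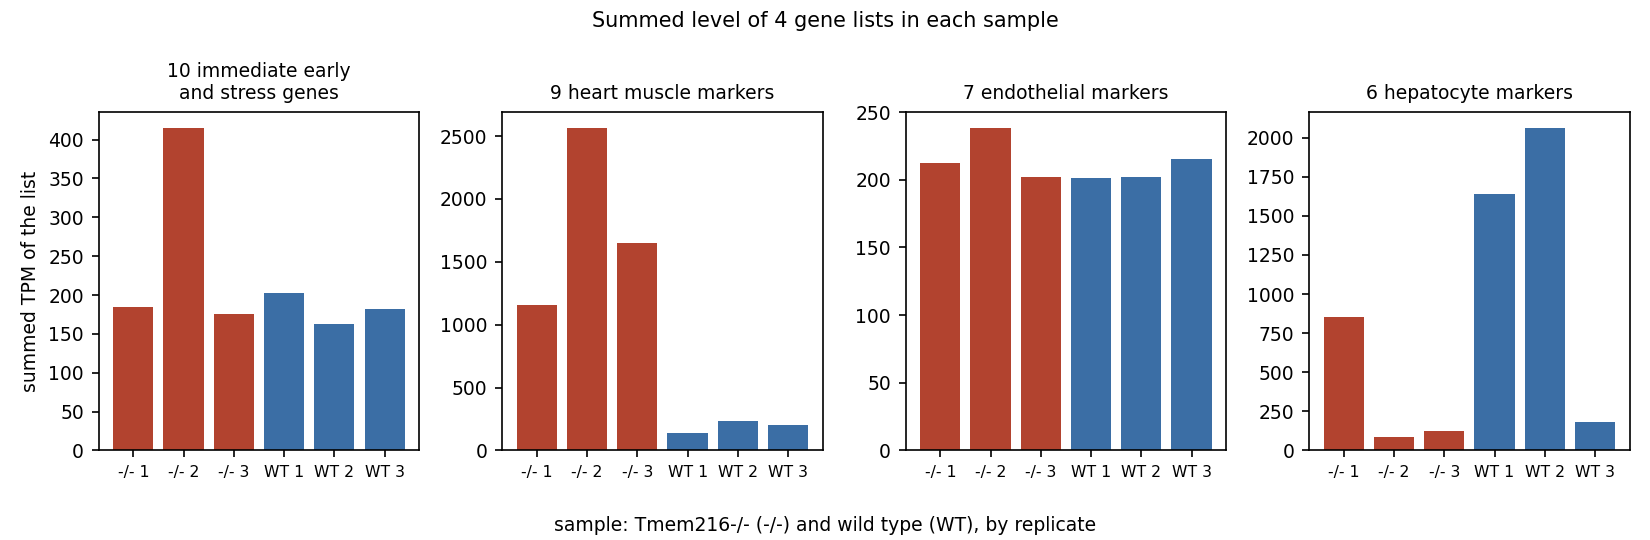
Summed TPM of 4 gene lists in each sample, with Tmem216-/- samples in red left of wild type samples in blue; each panel has its own axis from 0. The sum of the 10 immediate early and stress genes is 415 TPM in Tmem216-/- replicate 2 and between 163 and 203 TPM in the other samples, while the heart muscle sum runs from 1155 to 2567 TPM in the 3 Tmem216-/- samples and from 139 to 234 TPM in wild type.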

How the data were processed

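Total RNA from 6 samples was sequenced from TruSeq libraries, per the labels' protocols. The authors deposited TPM values per gene, which sum to 1000000 in each sample and keep no depth, so log values were tested and not counts. The submitters' processing notes name CASAVA 1.8, HISAT2, StringTie, RSEM and mm10. The table has 56359 rows, 823 of them without an Ensembl identifier, and 2 further columns equal to the group means, which were not used. Where identifiers shared a symbol, the one with the highest mean kept it.

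The 16411 genes with a level of 1 TPM or above in no fewer than 3 samples were fitted as log2(TPM + 1) in limma 3.58.1 (lmFit, eBayes with a trend, two-sided), with Benjamini-Hochberg adjustment over all tested genes and a threshold of 0.05. Exact permutation tests used all 20 assignments of 3 against 3. The scripts were tested on simulated data. Named genes are the members, Tmem216, the 3 genes with the smallest p in each pathway list where none passed, and the 5 nearest profiles. Atf4, Junos, Prdx2, Ergic1, Cpsf7 and Hbb-bh1 were named after their values were seen. The members and lists were chosen with earlier results of these data known. Gene positions come from GENCODE M21 (mm10) and promoter starts from RefSeq. For Dusp1 and Atf3 the RefSeq start lies well inside the GENCODE span. Same-numbered samples gave no sign of pairing: their deviations correlated at 0.02, -0.09 and 0.10 over genes. Those of differently numbered samples correlated at -0.15 to 0.14. A shared batch or litter was not tested. Alternatives were other pseudocounts, filters, scalings and priors, a replicate block and each sample left out. R was 4.3.3, Python 3.11.15, pandas 2.3.3, scipy 1.17.1 and matplotlib 3.10.9.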

Additional observations from a re-analysis of the deposited data

How the results depend on the processing

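In every alternative run, 0 of the tested members passed limma, and their lowest adjusted p was 0.411. The median log2 fold change of the members ran from 8.0e-05 (without Tmem216-/- replicate 2) to 0.69 with each sample left out, and from 0.31 (filter at 5 TPM, which kept 7 members) to 0.58 under the other settings, against 0.52. Leaving out each sample gave -0.0052 to 1.74 for Fos, -0.16 to 1.86 for Fosb, -0.28 to 0.37 for Junb, -0.085 to 1.24 for Egr1 and -0.12 to 0.16 for Ier2. Of 137 single-gene values under the alternatives 7 changed sign: those 5 genes at their lowest value, without Tmem216-/- replicate 2, Ier2 (-0.09) without wild type replicate 2 and Junb (-0.05) without wild type replicate 3. Over all tested genes 17 passed, against 0 with no filter, where 30598 genes were tested and 1207 had an unadjusted p under 0.05, and 0 to 27 with each sample left out (0 without wild type replicate 1, where 518 had an unadjusted p under 0.05; the count was 1 and 2 without wild type replicates 3 and 2, and 7, 9 and 27 without Tmem216-/- replicates 3, 2 and 1). With the replicate block 25 genes and 0 members passed, though no label says that the numbers pair the samples. TPM keep no depth, so counting error in the low genes, Atf3, Ier3 and Fosb, is unknown.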
